A study of Arabidopsis thaliana with 4 samples.

Results

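Floral meristem identity and SEPALLATA genes were examined as a set of 8: LEAFY (LFY), APETALA1 (AP1), CAULIFLOWER (CAL), FRUITFULL (FUL) and SEP1, SEP2, SEP3 and SEP4. They were found by locus identifier among 27444 nuclear protein-coding genes. The set and the gene lists below were chosen with earlier results of these data known. Every peak that touched a gene body or the 1 kb on either side of it was taken. These windows held 6 of 3668 nuclear peaks in replicate 1 and 7 of 3487 in replicate 2. The peaks came from chromatin immunoprecipitation with sequencing (ChIP-seq), in which an antibody against the HA epitope recovered HA-tagged SHORT LIFE (SHL) together with the DNA it was bound to. Both ChIP samples were whole Col-0 seedlings of about 10 days, grown on plates under a cycle of 16 h light and 8 h dark. The plants were ebs shl mutants that carried SHL fused to HA under the native SHL promoter. The line therefore lacked EBS as well as endogenous SHL. The 2 input samples, of DNA from the same line without an antibody, had no peak list and entered no comparison, and no untagged line is among the 4 samples. The labels do not say whether the replicates were separate plantings, so differences between them may be technical.

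SHL and EBS are related plant proteins with a BAH and a PHD domain, which are modules that read modified histone tails, and both restrain flowering. LFY is a plant-specific transcription factor that turns new primordia into flowers. AP1, CAL and FUL are closely related MADS-box transcription factors that act with LFY, and the SEP proteins are MADS-box cofactors that the floral organ identity proteins need. Many floral regulators are known to be kept silent by Polycomb in seedlings.

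Of the 8 genes, 4 had a peak in both replicates: LFY, AP1, FUL and SEP4. CAL had a peak in replicate 2 alone. SEP1, SEP2 and SEP3 had none in either list. Replicate 1 thus marked 4 of the 8, where 14.8% of all protein-coding genes had a peak on the body or within 1 kb. Replicate 2 marked 5 of the 8, against 14.4% of all protein-coding genes. Peaks in both lists were found on 4 of the 8, against 8.66% of all protein-coding genes. On gene bodies alone the same 4, 5 and 4 genes were marked, against 10.2% of all genes in replicate 1, 10.0% in replicate 2 and 5.86% in both. In all 4 genes marked in both lists, a peak of one replicate overlapped one of the other. Over all protein-coding genes this was so for 2218 of the 2378 marked in both (93.3%), which is 8.08% of all protein-coding genes. When each peak had to cover at least 50% of the other, LFY, AP1 and SEP4 remained, which is 3 of the 8, against 7.01% of all protein-coding genes. More than 1 peak in a list was seen on AP1 and FUL in replicate 1 and on LFY and AP1 in replicate 2, which is 2 of the 8 each time. Over all protein-coding genes, at least 2 peaks were seen on 1.52% in replicate 1 and on 1.33% in replicate 2. With 8 genes and 1 condition these counts are a description, and no test was made on them. The bodies of the 8 genes were longer than most, at 2588 to 4056 bp, against a median of 2078 bp over all protein-coding genes. Among all 6411 protein-coding genes in that length range, 12.9% had a peak in replicate 1, 12.6% in replicate 2 and 7.55% in both.

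**Figure D1:**
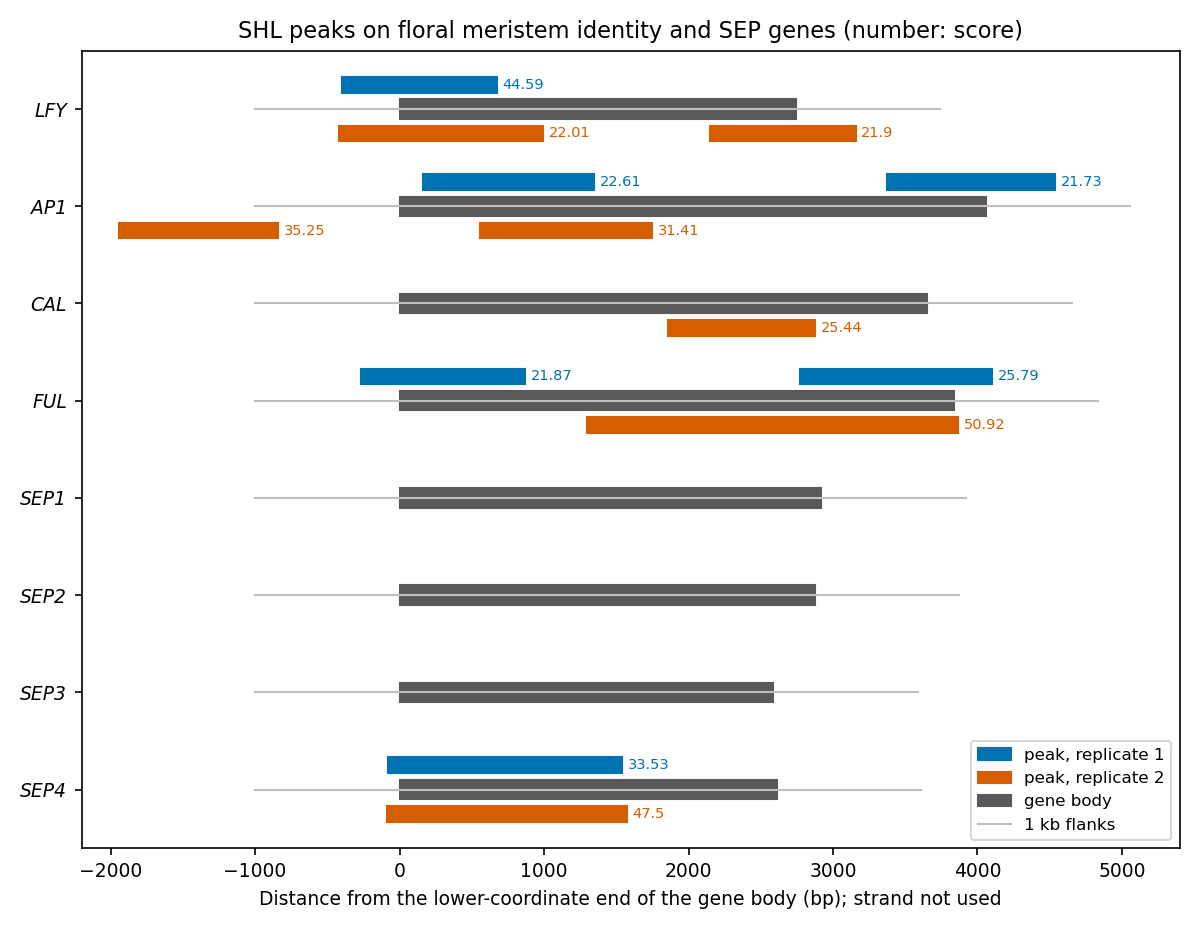
Peaks of replicate 1 (blue, above) and replicate 2 (orange, below) on the 8 genes, drawn to scale as distance in bp from the lower-coordinate end of each gene body (dark bar) with its 1 kb flanks (grey line); the number beside a peak is its deposited score. LFY, AP1, FUL and SEP4 have peaks of both replicates that overlap, CAL has 1 peak of replicate 2, and SEP1, SEP2 and SEP3 have none.

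The score of a peak is the authors' own and depends on its library, so each score is also given as a percentile, the share of the nuclear peaks of the same list that scored the same or less. The lists have no header, and MACS 1.4, the peak caller, by convention writes a score as −10 times the log10 of a peak's p-value. On that reading the lowest scores, 20.01 in replicate 1 and 20 in replicate 2, stand for a p-value of about 0.01. The caller's default limit of 1e-05 would stand at 50. Of the 13 peaks on the 8 genes, 12 scored under 50. Of all peaks on the body or 1 kb flanks of a protein-coding gene, 68.2% did so in replicate 1 and 66.7% in replicate 2. The lists give no read depth. All positions below are those of the peaks on the TAIR10 build, counted from 1.

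LFY (AT5G61850), on chromosome 5, had overlapping peaks of both replicates across the lower-coordinate end of its body. The replicate 1 peak, chr5:24843851-24844918, scored 44.59, at percentile 55.1 of its list. The replicate 2 peak, chr5:24843832-24845242, scored 22.01, at percentile 11.2. The peak of replicate 1 lay wholly inside that of replicate 2, and they shared 1068 bp. LFY stood in the middle of the first list and near the foot of the second. Replicate 2 also had a peak at the opposite end of the gene, chr5:24846397-24847403, with a score of 21.9. That peak reached the neighbouring protein-coding gene AT5G61865, and replicate 1 had nothing overlapping it. Peaks covered 24.5% of the LFY body in replicate 1 and 57.9% in replicate 2.

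AP1 (AT1G69120), the gene on chromosome 1 that specifies floral meristems and the outer floral organs, was marked inside its body in both replicates. The peaks were chr1:25982455-25983638 in replicate 1, with a score of 22.61 (percentile 14.1), and chr1:25982854-25984042 in replicate 2, with a score of 31.41 (percentile 39.0). They shared 785 bp, which is 66.3% of the first peak and 66.0% of the second. Each list had a further peak near AP1, and these lay at opposite ends of the gene. Replicate 1 had chr1:25985668-25986833, which crossed the higher-coordinate end of the body and scored 21.73. Replicate 2 had chr1:25980353-25981451, which scored 35.25 and lay 843 bp outside the body, on the neighbouring protein-coding gene AT1G69100. A replicate 1 peak with a score of 26 overlapped this peak by 79 bp but lay 1863 bp from AP1, outside the flank. The highest score in the AP1 window of replicate 2 was therefore that of a peak on a neighbour.

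CAL (AT1G26310), the paralogue of AP1 with which it overlaps in function, differed from AP1 in having no peak in replicate 1. Its replicate 2 peak, chr1:9101849-9102866, lay within the body, covered 27.9% of it and scored 25.44 (percentile 24.0). The nearest replicate 1 peak scored 32.1 and lay 1859 bp away, on the gene AT1G26320. That peak and the CAL peak of replicate 2 were on different genes, so CAL rests on 1 list.

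FUL (AT5G60910), listed in the reference as AGL8 and known for its roles in inflorescence meristems and in fruit growth, had the broadest peak of the 8 genes. In replicate 2 it was chr5:24503728-24506296, which is 2569 bp wide, scored 50.92 (percentile 58.7) and covered 66.3% of the body. Replicate 1 instead had 2 narrower peaks, at each end of the gene. The one at the higher-coordinate end, chr5:24505204-24506532, scored 25.79 (percentile 25.2) and shared 1093 bp with the replicate 2 peak. This was 82.2% of the narrower peak and 42.5% of the broader one. The other, chr5:24502169-24503304, scored 21.87 and overlapped no peak of replicate 2. FUL thus had the highest score of the set in replicate 2, and in replicate 1 a score in the lowest 30% of its list.

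SEP4 (AT2G03710), on chromosome 2, was the SEP gene with peaks, and its peaks matched most closely between the replicates. They were chr2:1129152-1130768 in replicate 1 and chr2:1129144-1130801 in replicate 2, with lower edges 8 bp and upper edges 33 bp apart, and 1617 bp shared. The scores were 33.53 (percentile 42.6) and 47.5 (percentile 56.4). Both peaks began just outside the lower-coordinate end of the body and covered 59.0% of it in replicate 1 and 60.3% in replicate 2. SEP4 was also the member whose ranks differed least between the lists. Its product is known to share roles with the other SEP proteins in floral organ and meristem identity.

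The other SEP genes lay away from any listed peak. The nearest peak to SEP1 (AT5G15800) was 13.967 kb away in replicate 1, with a score of 38.95, and 14.235 kb away in replicate 2, with a score of 23.03, on the gene bZIP3 in both. For SEP2 (AT3G02310), the close paralogue of SEP1, the gap was 11.835 kb in replicate 1 and 11.817 kb in replicate 2. The peaks there scored 2801.93 and 2748.48 and overlapped no annotated gene. For SEP3 (AT1G24260), the most broadly acting of the SEP cofactors, the gap was 56.236 kb in replicate 1 and 55.844 kb in replicate 2. The lists hold only peaks above the caller's limit, so weaker enrichment on these genes cannot be seen from them.

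Peaks on the 8 genes were of ordinary width for peaks near protein-coding genes. They were 1068 to 1617 bp wide in replicate 1 (median 1175 bp), where all peaks on protein-coding windows had a median of 1109 bp. In replicate 2 they were 1007 to 2569 bp wide (median 1189 bp), where all such peaks had a median of 1264 bp. Of the 13 peaks, 9 crossed one end of a member's body, 3 lay wholly inside a body and 1 lay in a flank. Counted the same way, once for each protein-coding gene whose body or flank a peak touched, 44.6% of all cases in replicate 1 and 49.7% in replicate 2 crossed an end of the body. A further 20.6% in replicate 1 and 16.3% in replicate 2 lay inside the body, and the rest lay in a flank. Of the 13 peaks, 11 overlapped no other annotated gene, as did 52.2% of all such cases in replicate 1 and 49.5% in replicate 2. Of all such cases, 34.7% in replicate 1 and 34.0% in replicate 2 lay in a flank only, against 1 of the 13 peaks. The shares that crossed an end or overlapped no other gene are therefore not a like comparison for peaks on bodies. LFY and SEP4 were marked across the lower-coordinate end in both replicates, and FUL across the higher-coordinate end in both. The reference gives no strand, so which end is the start of transcription was not used. The stretch of body covered in both replicates was 24.5% for LFY, 19.4% for AP1, 27.8% for FUL and 59.0% for SEP4. Over all 2378 protein-coding genes with a peak in both lists the median was 27.7%. That set includes genes whose peaks touched only a flank, as 1608 genes had a peak on the body in both lists. All 4 of these members had body peaks in both lists, so the median is not a like comparison.

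**Figure D2:**
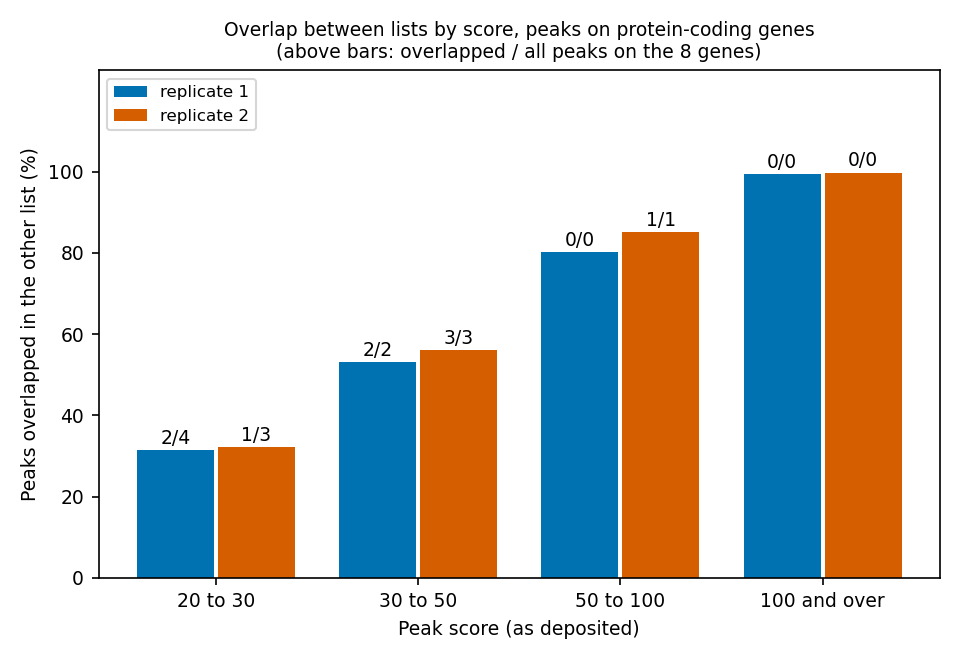
Share of peaks on protein-coding windows (y axis, %) that a peak of the other replicate overlapped by at least 1 bp, by deposited score (x axis), for replicate 1 (blue) and replicate 2 (orange); above each bar stands how many of the peaks on the 8 genes were overlapped, out of how many. The peaks on the 8 genes fall in the bands below 100, where the overlap between lists is incomplete.

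Scores mattered for agreement between the lists. Of all peaks on protein-coding windows scoring 20 to 30, the other list held an overlapping peak for 31.5% in replicate 1 and 32.2% in replicate 2. At 30 to 50 this was 53.2% and 56.1%, at 50 to 100 it was 80.3% and 85.2%, and at 100 or more it was 99.5% and 99.8%. Of the 7 peaks on the 8 genes that scored under 30, 3 were overlapped in the other list: the AP1 body peak and the higher-coordinate FUL peak of replicate 1, and the LFY peak of replicate 2 that spans the lower-coordinate end. All 5 scoring from 30 to 50 were overlapped, which includes the AP1 flank peak met by 79 bp beyond the flank, and so was the FUL peak above 50. The 4 without a counterpart were those at the higher-coordinate end of LFY and of AP1, the one at the lower-coordinate end of FUL, and the peak of CAL. Each of these 4 scored under 26. With peaks scoring at least 30 in each list, SEP4 was the only one of the 8 genes marked in both replicates (5.75% of all protein-coding genes). With at least 50, none was marked in both (3.74% of all protein-coding genes).

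**Figure D3:**
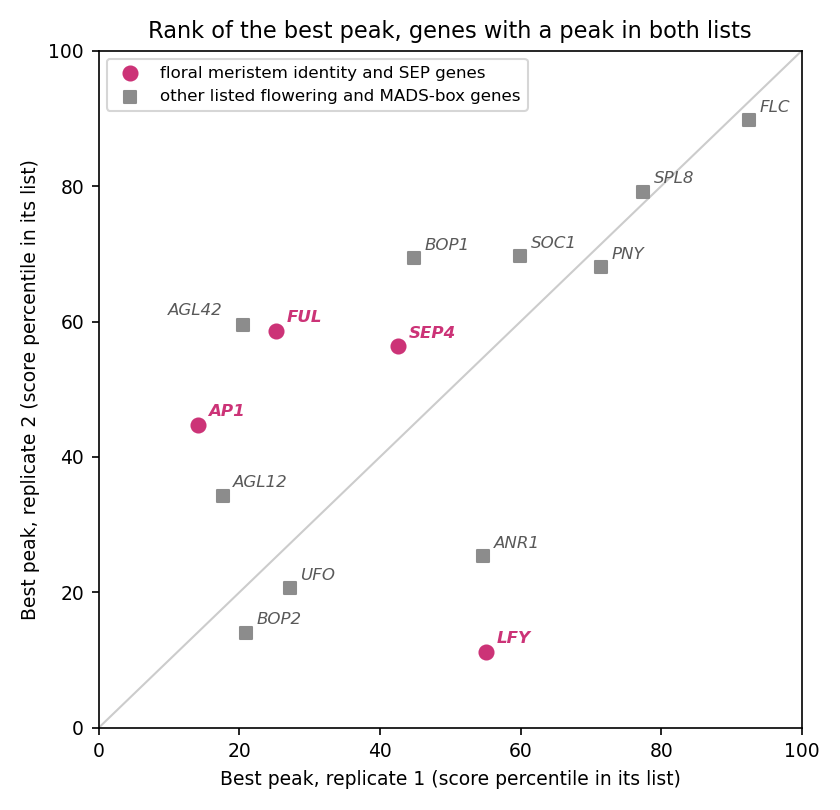
Score percentile of the best peak on the body or 1 kb flanks in replicate 1 (x axis) and replicate 2 (y axis), for the members (pink circles) and the other listed genes (grey squares) that have a peak in both lists; the line marks equal percentiles. LFY lies below the line at 55.1 and 11.2, while AP1, FUL and SEP4 lie above it.

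The order of the members depended on the list. In replicate 1 the best peak of LFY ranked highest, at percentile 55.1, followed by SEP4 at 42.6, FUL at 25.2 and AP1 at 14.1. In replicate 2 FUL came first at 58.7 and SEP4 second at 56.4, followed by AP1 at 44.8, CAL at 24.0 and LFY at 11.2. The 44.8 of AP1 is that of the flank peak. SEP4 was second in both lists, and LFY was highest in one and lowest in the other. With 1 list per replicate, neighbours in these orders cannot be told apart. Among all 2378 protein-coding genes with a peak in both lists, the median best score was 55.4 in replicate 1 and 56.3 in replicate 2. The best scores of the 4 such members were below these medians, at 22.61 to 44.59 in replicate 1 and 22.01 to 50.92 in replicate 2. Such scores were common. Best scores under 60 in both lists were found for all 4 members and for 1038 of the 2378 genes (43.7%).

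A list of 22 genes was grouped as upstream regulators, and whether each acts before the members was not tested. Of these, 7 had a peak in replicate 1 (31.8%, against 14.8% of all protein-coding genes) and 7 in replicate 2 (31.8%, against 14.4%). Both lists marked 6 of them (27.3%, against 8.66% of all protein-coding genes). SOC1 (AT2G45660), a MADS-box activator of LFY, scored 52.16 and 86.39 in replicates 1 and 2. UFO (AT1G30950), the F-box partner of LFY, scored 26.62 and 24.42, close to the floor of each list. PNY (AT5G02030), a homeodomain protein of the inflorescence meristem listed in the reference as RPL, scored 102.83 and 78.78. The BOP genes, whose products promote floral meristem fate, were both marked. BOP1 (AT3G57130) scored 35.13 and 84.63. BOP2 (AT2G41370) scored 24.43 and 22.63, with peaks that did not overlap. FLC (AT5G10140), the MADS-box floral repressor, had best scores of 2577.62 and 1536.07, which belong to peaks beside the gene that touched only its flank. Replicate 2 listed 2 peaks in the FLC window, and the position of the other is not given here. TFL1, which opposes LFY and AP1 in the shoot apex, had a peak in replicate 1 alone, with a score of 32.59. LMI1, a homeodomain activator of CAL, had one in replicate 2 alone, with a score of 53.84. FT and FD, which activate AP1, had none in either list. TFL1, LMI1, FT and FD were named after their values were seen.

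The next list held 11 genes grouped as downstream floral genes, and whether each acts after the members was not tested. Of these, 3 had a peak in replicate 1 (27.3%, against 14.8% of all protein-coding genes), 5 in replicate 2 (45.5%, against 14.4%) and 1 in both (9.09%, against 8.66%). That gene was SPL8 (AT1G02065), a transcription factor of anther development, with scores of 214.88 and 254.23. A peak in replicate 1 alone was listed for SHP1, with a score of 21.2, and for SPL, with 81.86. A peak in replicate 2 alone was listed for the petal and stamen gene PI, with a score of 30.02, for WUS, with 21.03, and for CRC, with 24.38. STK, an ovule identity gene, had 3 peaks in replicate 2, the best of which scored 29.47. AG and AP3, organ identity genes that LFY activates, had no peak, nor had SHP2 and SUP. The genes of this list other than SPL8 were named after their values were seen.

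All the members but LFY belong to the MIKC class of MADS-box factors, and 32 other genes of that class were listed. Replicate 1 marked 8 of the 32, against 14.8% of all protein-coding genes. Replicate 2 marked 10 of the 32, against 14.4% of all protein-coding genes. Both lists marked 5 of the 32 (15.6%, against 8.66% of all protein-coding genes). Besides SOC1 and FLC, the genes with a peak in both were ANR1, AGL42 and AGL12. ANR1 (AT2G14210), a root gene of the nitrate response, scored 44 and 25.85. AGL42 (AT5G62165), a relative of SOC1, scored 24.3 and 52.57. AGL12 (AT1G71692), another root gene, scored 23.54 and 29.28, with peaks that did not overlap. The 7 MADS-box members had 3 genes marked in both lists. Of the 32 others, 10 also stand in the upstream or downstream lists, so these counts are not independent.

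**Figure D4:**
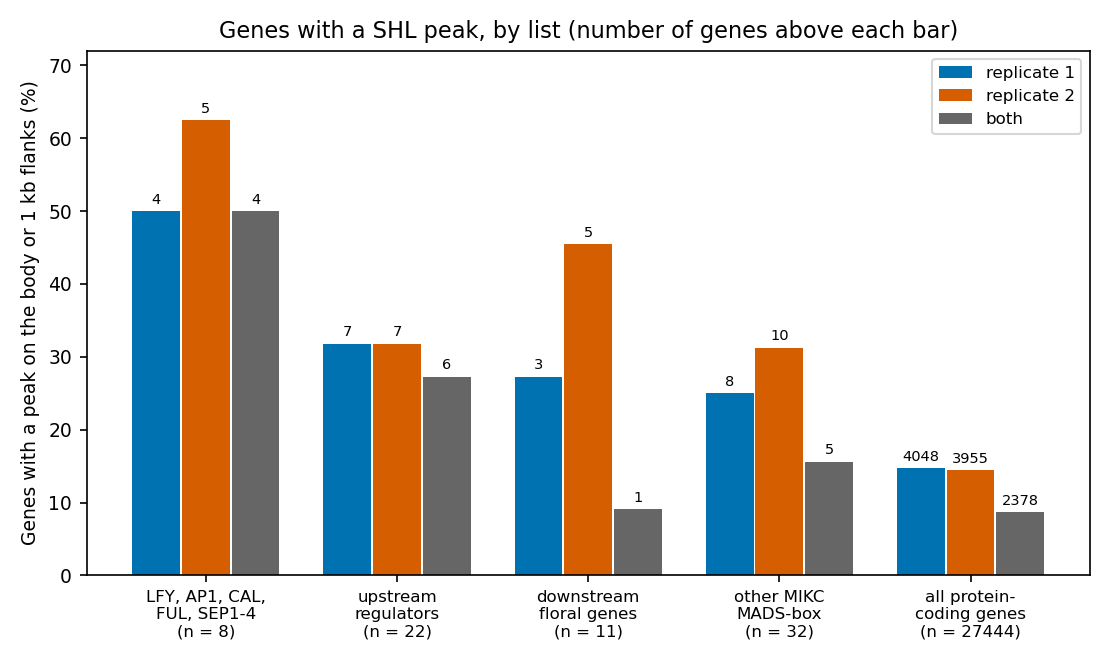
Percent of genes (y axis) with a peak on the body or 1 kb flanks in replicate 1 (blue), replicate 2 (orange) and both (grey). Bars stand for the 8 members, the 22 upstream regulators, the 11 downstream floral genes, the 32 other listed MIKC MADS-box genes and all 27444 protein-coding genes. Numbers above bars are genes. The share in both lists is 50% for the members and 8.66% for all protein-coding genes.

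The listed genes most like the members in rank were found by the distance between their 2 percentiles and the medians of the 4 members marked in both lists, 33.9 in replicate 1 and 50.6 in replicate 2. They were AGL42, at a distance of 16.0 percentile points, BOP1 at 21.7 and AGL12 at 23.0. The replicate 2 median rests partly on the 44.8 of AP1, which is that of the flank peak on a neighbouring gene. The measure uses 2 samples of 1 condition and says only that the peaks rank alike.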

How the data were processed

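SHL ChIP-seq of whole Arabidopsis seedlings was analysed from the peak lists of 2 ChIP samples, grouped and numbered by their titles. The 2 input samples had no file and were left out. The submitters' processing notes name the TAIR10 build and 3 tools, namely MACS 1.4, Bowtie2 2.2.8 and SAMtools 1.3. Peaks were called in each sample separately by the authors, as there is 1 list for each. Their settings and control are not given in the sources used here, nor is how reads from paralogous sequence were placed. The score of each peak is the authors' deposited value and was used as it stands, to rank and filter peaks within a list.

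Peaks on the 5 nuclear chromosomes were compared with gene bodies extended by 1000 bp on each side, and 1 bp of overlap was enough. Gene positions came from the RefSeq table of assembly TAIR10.1, which has no strand, exons or sequence. The lists use TAIR10. The share of peak midpoints inside protein-coding bodies was 64.9% in replicate 1 and 63.5% in replicate 2, and 35.3% to 36.9% after a shift of 1500 bp either way. No gene coordinate is printed. Each of the 63 listed genes matched by locus identifier, and 54 also by symbol.

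The members and gene lists were chosen with earlier results of these data known. Named beside the members were up to 6 genes per list with peaks in both replicates, ranked by the lower percentile, and the 3 listed genes nearest the members in percentile. No test was made, since the lists cover 1 condition. Alternatives were other flanks (0 bp, 500 bp and 2 kb), score minimums of 30 and 50, midpoints, a reciprocal overlap of 50%, each replicate left out, and percentiles among genic peaks. Python 3.11.15, pandas 2.3.3, numpy 2.4.6 and matplotlib 3.10.9 were used, and the overlap routine was tested on simulated peaks.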

Additional observations from a re-analysis of the deposited data

How the results depend on the processing

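The counts of members with a peak, 4 in replicate 1, 5 in replicate 2 and 4 in both, depended on the score. With a minimum score of 30 they were 2, 3 and 1, and with 50 they were 0, 1 and 0. All protein-coding genes fell as well, to 9.09%, 8.92% and 5.75% at 30 and to 5.17%, 5.25% and 3.74% at 50. The counts were again 4, 5 and 4 on gene bodies alone (10.2%, 10.0% and 5.86% of all protein-coding genes), with a 500 bp flank (12.4%, 12.2% and 7.08%) and with midpoints (11.9%, 11.3% and 6.57%). A 2 kb flank gave 5, 5 and 5 (19.0%, 18.7% and 11.7%), because the replicate 1 peak near CAL then counted. Overlapping peaks of both replicates were found on 4 members (8.08% of all protein-coding genes). A reciprocal overlap of 50% was found on 3 (7.01%), where FUL no longer counted. Leaving out replicate 1 gave 5 (14.4%) and leaving out replicate 2 gave 4 (14.8%), which are the counts of the single lists. Of 27 recomputed best scores, 3 changed, and all 3 were those of AP1. They were 31.41 in replicate 2 on the body alone and with a 500 bp flank, and 26 in replicate 1 with a 2 kb flank. Among peaks on protein-coding bodies, the members' percentiles were 1.68 to 10.1 points higher. That of CAL was 28, against 24.0. No paired analysis was possible because the input samples had no file here and no test was made.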
